A study of Mus musculus with 60 samples.

Results

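Subcutaneous fat of mice on a Western diet was compared with that of mice on a control diet, where both groups were labelled as treated with NaKtide. The comparison used 10 of the 60 RNA-seq libraries of the series, chosen by tissue, diet and treatment label: 5 labelled Western diet + NaKtide and 5 labelled control diet + NaKtide. The design text speaks of 5 mice in each group; p-values measure the spread between these libraries. Fat made up 42% of the Western diet and 11% of the control diet, a normal chow. Carbohydrate made up 42.7% and 62%, and protein 15.2% and 27.0%, of the Western and the control diet. Mice ate their diet for 12 weeks. NaKtide was induced in transgenic mice by 300 mg/kg doxycycline in either diet, so both groups shared doxycycline and the transgene. The promoter that drove the transgene, the strain and the age were not given in the sources used here; the series title names the Na,K-ATPase of the adipocyte and cognitive decline. NaKtide transcripts themselves were not analysed here.

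The Na,K-ATPase pumps sodium out of and potassium into the cell, and it also binds the kinase Src. NaKtide is a peptide taken from the pump's own sequence that binds Src and blocks the signal that the pump passes to it under oxidant stress. Subcutaneous fat stores triglyceride, makes fatty acids from glucose when dietary fat is scarce, and secretes hormones such as leptin and adiponectin. Diets rich in fat enlarge adipocytes and draw macrophages into fat depots.

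Levels are given as CPM, read counts relative to library size, scaled by edgeR's TMM factors, and lists of 5 values run over replicates 1 to 5. The 10 libraries held 3.49 to 8.46 M counts. White adipocyte markers summed to 22299 to 31814 CPM in Western + NaKtide fat, against 19485 to 36074 CPM in control + NaKtide fat, so the labelled tissue's transcripts were abundant in all 10 libraries. Some libraries stood apart from the rest of their group. Control + NaKtide replicate 2 was laden with skeletal muscle: the 20 muscle markers summed to 45.0, 1465, 4035, 948 and 47.6 CPM in Western + NaKtide fat, against 10951, 263455, 82.7, 3459 and 18404 CPM in control + NaKtide fat. That library also had the fewest counts, a TMM factor of 0.448 against 1.01 to 1.17 in the other 9, and 17.5% of its counts on mitochondrial mRNAs, where the other 9 had 2.65 to 6.26%. The library labelled control + NaKtide replicate 3 lay nearer to the Western libraries than to its own group, with a median Spearman correlation over genes of 0.962 to the Western + NaKtide libraries and 0.933 to the control + NaKtide libraries. Control + NaKtide replicate 4 had nearly equal values of 0.959 and 0.957. Replicate 3 had Mest, an imprinted gene that is high in expanding adipocytes, at 505 CPM, where the Western + NaKtide libraries had 270.2 to 407 CPM and the other 4 control + NaKtide libraries 5.78 to 78.6 CPM. The library labelled subcutaneous Western + NaKtide replicate 1 had Tbx15, a subcutaneous fat transcription factor, at 0.134 CPM, against 11.8 to 14.3 CPM in the other 4, and the mesothelial genes Wt1, Upk3b and Msln at 7.24, 35.1 and 20.2 CPM. The visceral library with the same label and number had the opposite pattern, with Tbx15 at 25.8 CPM and Wt1 at 0, so these 2 libraries went against their depot labels. The 12 listed transcripts of epididymis and testis, organs that touch visceral fat, summed to 238, 24.5, 0.924, 209 and 1.21 CPM in Western + NaKtide fat, against 0, 4.49, 0.136, 0.811 and 0 CPM in control + NaKtide fat. The 8 mesothelial markers summed to 86.1, 1.83, 2.08, 44.8 and 2.05 CPM in Western + NaKtide fat, against 1.66, 18.0, 1.22, 2.27 and 1.66 CPM in control + NaKtide fat. Western + NaKtide replicate 4 thus held transcripts of both kinds too. Results are therefore given with all libraries and without control + NaKtide replicate 2, and other single libraries are named where leaving them out moved a result.

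**Figure D1:**
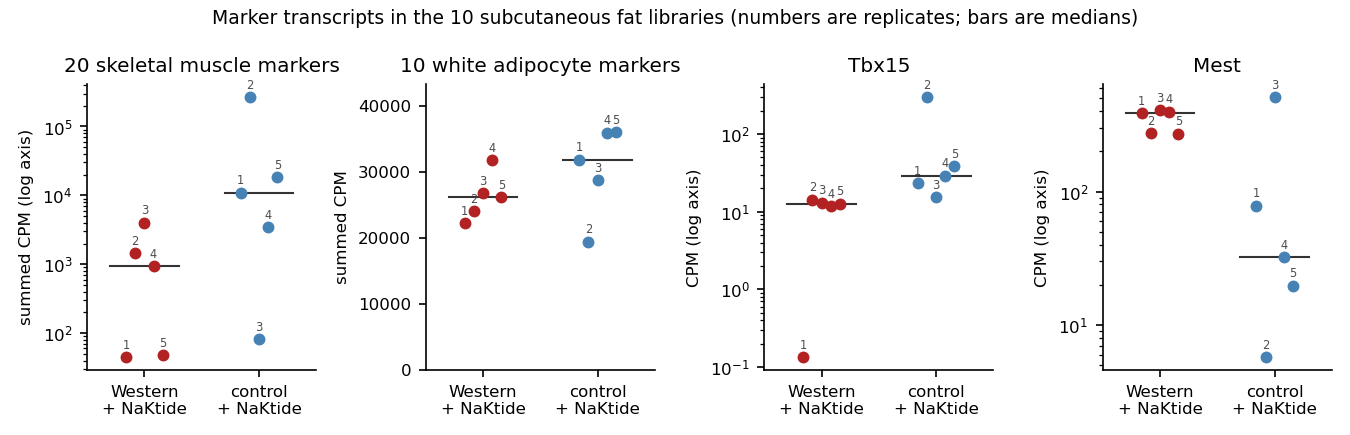
Summed CPM of 20 skeletal muscle markers, summed CPM of 10 white adipocyte markers, and CPM of Tbx15 and Mest, with 1 point for each of 5 Western + NaKtide libraries (left, red) and 5 control + NaKtide libraries (right, blue), numbered by replicate, and a bar at the median. Control + NaKtide replicate 2 tops the muscle panel, Western + NaKtide replicate 1 is lowest for Tbx15, and control + NaKtide replicate 3 lies with the Western libraries for Mest.

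No single gene passed an adjusted p of 0.05 between Western + NaKtide and control + NaKtide fat. Of 15226 genes tested with edgeR's quasi-likelihood test over the 20 subcutaneous libraries, 0 were called (0.00%), although the smallest adjusted p was 0.0582, 234 genes lay below 0.06 and 1049 below 0.10 (6.89%). Unadjusted p values were below 0.05 for 3735 genes (24.5%), 1644 higher and 2091 lower under the Western diet. All 5 Western + NaKtide libraries lay above all 5 control + NaKtide libraries for 305 genes (2.00% of those tested) and below them for 207 (1.36%). The median log2 fold change over all genes tested was -0.000946. DESeq2 called 1194 genes (7.84%; 378 higher and 816 lower) and limma voom with library weights 592 (3.89%; 366 higher and 226 lower).

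The count turned on single control libraries. Without the muscle-laden control + NaKtide replicate 2, edgeR called 4 genes of 15421 (0.0259%). Without control + NaKtide replicate 3, whose profile lay near the Western libraries, it called 1860 of 15442 (12.0%; 776 higher and 1084 lower), and that count is no independent evidence, since the library left out was the control most like the other group. Leaving out control + NaKtide replicate 4 gave 165 calls, and leaving out any other library gave 0 to 4. Of the 1049 genes below an adjusted p of 0.10, 906 were called without replicate 3 and 943 by DESeq2.

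**Figure D2:**
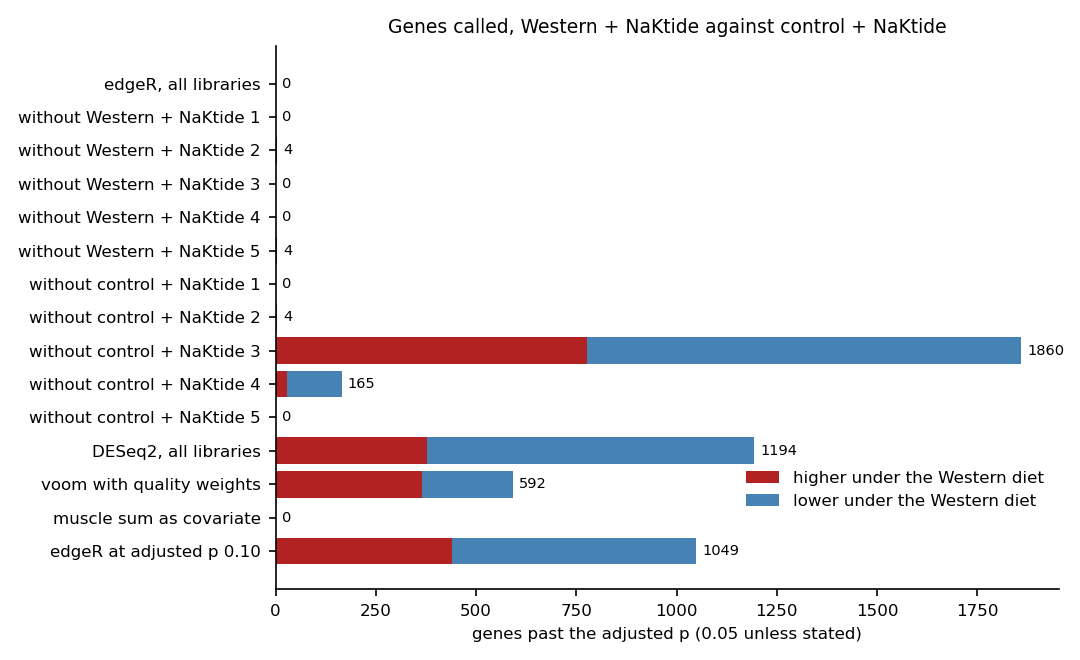
Number of genes past the adjusted p, Western + NaKtide against control + NaKtide in subcutaneous fat, by library left out and by test, with genes higher under the Western diet in red and lower in blue. The count is 0 with all libraries in edgeR, 1860 without control + NaKtide replicate 3 and 1194 with DESeq2.

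Of the 4 genes that passed without control + NaKtide replicate 2, Klf2 and Golga7b rose and Dbt and Met fell under the Western diet. With Western + NaKtide replicate 1, the library with the visceral pattern, left out as well, 0 genes passed (smallest adjusted p 0.0671). That fit kept Western + NaKtide replicate 4, which also held mesothelial and epididymal transcripts. Klf2 (ENSMUSG00000055148, chromosome 8, 72319033 to 72321656 in GRCm38) encodes a transcription factor that restrains inflammation in endothelium and blocks adipocyte differentiation. It had 136, 82.4, 102, 88.2 and 67.5 CPM in Western + NaKtide fat, against 37.3, 54.6, 42.1, 51.6 and 44.7 CPM in control + NaKtide fat. Every Western + NaKtide library was above every control + NaKtide library, and the log2 fold change was 1.05 ± 0.17 (SE) with all libraries (edgeR's adjusted p = 0.0582) and 1.11 ± 0.17 without replicate 2 (adjusted p = 0.0318). Golga7b (ENSMUSG00000042532, chromosome 19, 42247574 to 42270348), a partner of a protein palmitoyltransferase, had 28.0, 18.2, 53.7, 38.0 and 21.0 CPM in Western + NaKtide fat, against 6.49, 12.8, 6.25, 2.92 and 3.31 CPM in control + NaKtide fat. The groups did not overlap, and the log2 fold change was 2.46 ± 0.45 with all libraries (adjusted p = 0.0595) and 2.73 ± 0.44 without replicate 2 (adjusted p = 0.0349).

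Dbt (ENSMUSG00000000340, chromosome 3, 116513070 to 116549981) encodes the E2 subunit of the complex that commits branched-chain keto acids to breakdown. It had 38.6, 43.0, 44.0, 33.5 and 45.4 CPM in Western + NaKtide fat, against 88.5, 63.5, 68.2, 95.2 and 113 CPM in control + NaKtide fat. All 5 Western + NaKtide libraries were lower than all 5 control + NaKtide libraries, with a log2 fold change of -1.07 ± 0.18 with all libraries (edgeR's adjusted p = 0.0595) and -1.16 ± 0.18 without replicate 2 (adjusted p = 0.0318). Met (ENSMUSG00000009376, chromosome 6, 17463800 to 17573980), the receptor of hepatocyte growth factor, had 9.92, 15.4, 14.7, 9.71 and 12.1 CPM in Western + NaKtide fat, against 22.8, 8.34, 19.6, 33.4 and 37.6 CPM in control + NaKtide fat. Here the muscle-laden replicate 2 was the lowest of all 10 libraries and the other 4 controls were above every Western + NaKtide library, so the log2 fold change of -1.01 ± 0.26 (adjusted p = 0.0604) became -1.19 ± 0.20 without it (adjusted p = 0.0366).

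**Figure D3:**
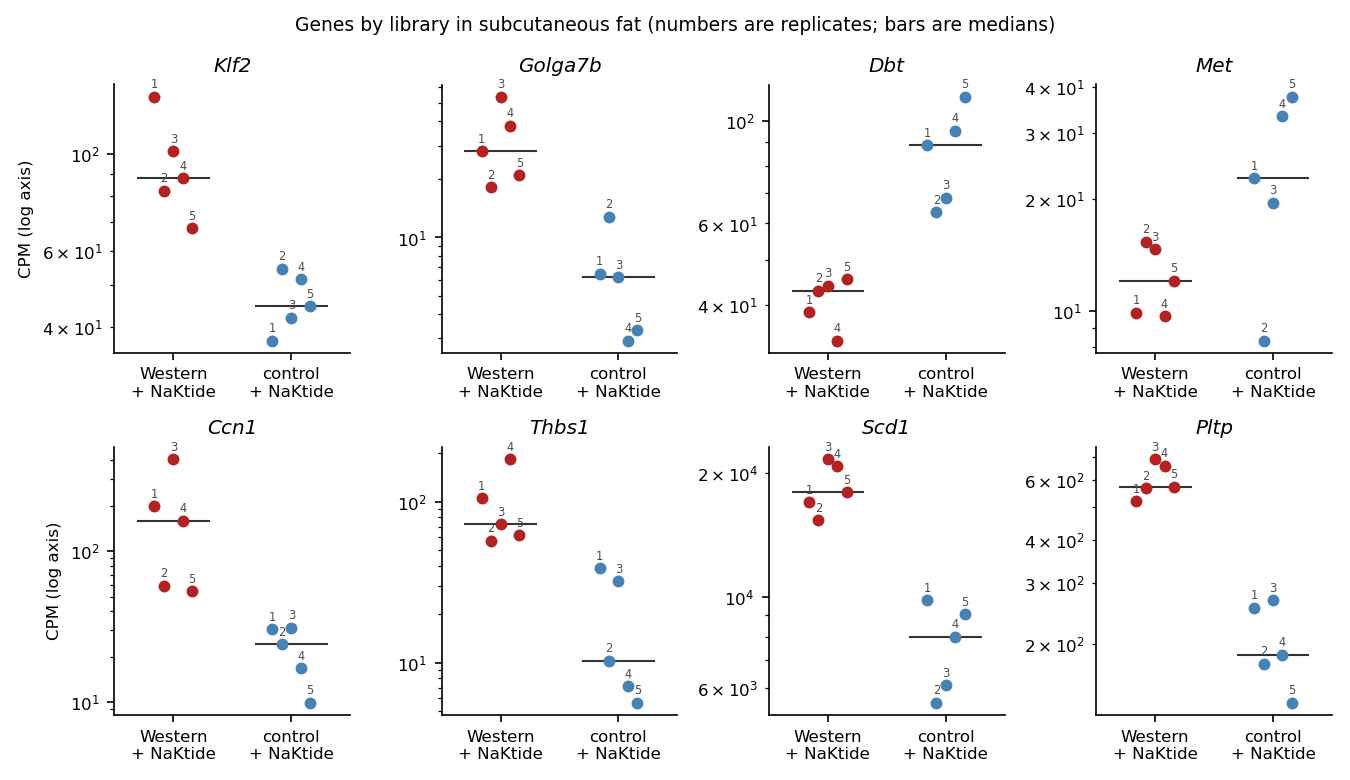
CPM on log axes of 8 genes in 5 Western + NaKtide libraries (left, red) and 5 control + NaKtide libraries (right, blue), numbered by replicate, with bars at the medians. Klf2, Golga7b, Ccn1, Thbs1, Scd1 and Pltp are higher in every Western + NaKtide library and Dbt is lower in every one, while control + NaKtide replicate 2 lies below the Western libraries for Met.

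Among metabolic lists, fatty acid synthesis stood out by its stearoyl-CoA desaturases, which put the double bond into newly made fatty acids. The 22 genes of the list summed to 24373, 21706, 31068, 24912 and 24099 CPM in Western + NaKtide fat, against 18191, 8932, 11199, 14344 and 15226 CPM in control + NaKtide fat. Every Western + NaKtide library was above every control + NaKtide library (exact permutation test, two-sided, p = 0.00794, adjusted p = 0.151 over 38 sums, where p is the smallest that 5 against 5 libraries allow). Of 21 members tested none passed, 5 were higher in all Western + NaKtide libraries (background 2.00%) and the median log2 fold change was 0.23 (0.05 without control + NaKtide replicate 2). Scd1 (ENSMUSG00000037071, chromosome 19, 44394455 to 44407879), the main adipose desaturase, made up most of the sum and had 16942, 15331, 21576, 20733 and 17941 CPM in Western + NaKtide fat, against 9819, 5526, 6093, 7996 and 9064 CPM in control + NaKtide fat. Scd1 had a log2 fold change of 1.26 ± 0.27 (edgeR's adjusted p = 0.0595).

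Other desaturases had the same pattern. Scd3 had 167, 185, 284, 209.8 and 216 CPM in Western + NaKtide fat, against 88.2, 31.4, 57.0, 44.3 and 50.2 CPM in control + NaKtide fat. Scd3 had a log2 fold change of 1.96 ± 0.40 (edgeR's adjusted p = 0.0595). Scd4 had 59.3 to 99.6 CPM in Western + NaKtide fat, against 10.9 to 29.1 CPM in control + NaKtide fat (1.98 ± 0.44, adjusted p = 0.0595). The desaturase genes are close in sequence, so how the counting split reads among them is uncertain. Fasn, which builds the fatty acid chain, had 2161, 1790.2, 2689, 684 and 1575 CPM in Western + NaKtide fat, against 3542, 832, 1517, 1418 and 1372 CPM in control + NaKtide fat. The groups overlapped (log2 fold change 0.04 ± 0.45, adjusted p = 0.975). Srebf1, the factor that drives lipogenic genes, overlapped too, at 262 to 444 CPM in Western + NaKtide fat, against 216 to 479.9 CPM in control + NaKtide fat (0.10 ± 0.21, adjusted p = 0.805).

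Of 25 cholesterol synthesis genes tested, none passed, 19 had a positive log2 fold change and the median was 0.26 (0.15 without control + NaKtide replicate 2). Insig1, the sterol-regulated retention protein that holds SREBPs in the endoplasmic reticulum, had 443, 272, 686, 195 and 299 CPM in Western + NaKtide fat, against 155, 48.1, 267, 80.6 and 67.9 CPM in control + NaKtide fat. Control + NaKtide replicate 3 reached into the Western range (log2 fold change 1.61 ± 0.47, edgeR's adjusted p = 0.0781). Pmvk, a kinase of the mevalonate pathway, had 69.6 to 171 CPM in Western + NaKtide fat, against 32.7 to 93.7 CPM in control + NaKtide fat (0.87 ± 0.30, adjusted p = 0.11). Srebf2, the master factor of the pathway, had 43.9 to 66.3 CPM in Western + NaKtide fat, against 25.7 to 60.0 CPM in control + NaKtide fat (0.28 ± 0.20, adjusted p = 0.384).

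Lists of lipid handling had medians near 0. None of 26 fatty acid uptake and oxidation genes, 19 triglyceride and droplet genes or 21 lipolysis genes tested passed, and their median log2 fold changes were 0.05, 0.06 and 0.01, and -0.04, -0.14 and -0.08 without control + NaKtide replicate 2. Acsl5, which activates fatty acids with coenzyme A, had 99.6, 76.0, 81.5, 90.1 and 84.4 CPM in Western + NaKtide fat, against 60.5, 28.2, 63.3, 59.2 and 59.6 CPM in control + NaKtide fat. Acsl5 had a log2 fold change of 0.66 ± 0.16 (edgeR's adjusted p = 0.0595). Acaa1b, a peroxisomal thiolase, had 149 to 196 CPM in Western + NaKtide fat, against 81.5 to 126 CPM in control + NaKtide fat (0.80 ± 0.20, adjusted p = 0.0595). For both genes the groups did not overlap. Plin2, a lipid droplet coat protein, had 608 to 1054 CPM in Western + NaKtide fat, against 206 to 691 CPM in control + NaKtide fat (0.73 ± 0.25, adjusted p = 0.108). Hilpda, an inhibitor of the triglyceride lipase ATGL, had 29.4 to 105 CPM in Western + NaKtide fat, against 8.34 to 68.5 CPM in control + NaKtide fat, and its highest control was replicate 3 (1.18 ± 0.47, adjusted p = 0.143). The value without that control was 2.07 ± 0.37 (adjusted p = 0.0132), which is no independent evidence, since replicate 3 was the control most like the Western libraries. Npr1, the natriuretic peptide receptor that can start lipolysis, had 45.8 to 103 CPM in Western + NaKtide fat, against 28.4 to 74.6 CPM in control + NaKtide fat (0.49 ± 0.23, adjusted p = 0.191). Fitm1, a droplet protein of muscle, had 0.324 to 6.01 CPM in Western + NaKtide fat, against 0.407 to 683 CPM in control + NaKtide fat, and followed the muscle markers (-6.25 ± 1.47, adjusted p = 0.0595). It was -2.82 ± 0.94 without replicate 2 (adjusted p = 0.143). Pltp (ENSMUSG00000017754, chromosome 2, 164839518 to 164857711), which moves phospholipids between lipoproteins and was named after its values were seen, had 519, 568, 690.1, 660.2 and 573 CPM in Western + NaKtide fat, against 255, 175, 268, 186 and 135 CPM in control + NaKtide fat. Pltp had a log2 fold change of 1.56 ± 0.33 (edgeR's adjusted p = 0.0595), with no overlap.

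Immediate early genes, which cells transcribe within minutes of a stimulus and whose products include the Egr, Fos and Klf factors, had mostly positive log2 fold changes. This list of 36 genes was drawn up after several had been seen among the smallest p values, so its counts describe it and test nothing. Its summed level was 1867, 1081, 2496, 1194 and 978 CPM in Western + NaKtide fat, against 692, 919, 738, 779 and 652 CPM in control + NaKtide fat. Every Western + NaKtide library was above every control + NaKtide library. Of 36 members 34 had a positive log2 fold change (median 0.90, against -0.000946 over all genes) and 11 were higher in all Western + NaKtide libraries (background 2.00%). Without control + NaKtide replicate 2 Klf2 alone among them passed. Ccn1 (ENSMUSG00000028195, chromosome 3, 145646976 to 145649981), a matrix-bound signal protein, had 198, 59.3, 408, 159 and 54.5 CPM in Western + NaKtide fat, against 30.6, 24.4, 31.2, 16.9 and 9.94 CPM in control + NaKtide fat. Ccn1 had a log2 fold change of 2.96 ± 0.49 (edgeR's adjusted p = 0.0595). Western + NaKtide replicates 1, 3 and 4 were far above replicates 2 and 5, and the controls lay below all 5.

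Egr1, a zinc finger factor, had 149, 45.8, 236, 31.1 and 34.9 CPM in Western + NaKtide fat, against 12.4, 18.0, 17.0, 7.78 and 5.30 CPM in control + NaKtide fat. Egr1 had a log2 fold change of 3.08 ± 0.60 (edgeR's adjusted p = 0.0595). Fos, a subunit of AP-1, had 58.9, 16.7, 75.2, 11.0 and 11.8 CPM in Western + NaKtide fat, against 2.11, 8.99, 4.89, 1.46 and 0.166 CPM in control + NaKtide fat. Fos had a log2 fold change of 3.55 ± 0.83 (edgeR's adjusted p = 0.0595). Both genes had their highest values in Western + NaKtide replicates 1 and 3, and the groups did not overlap. Egr3 had 1.33 to 19.7 CPM in Western + NaKtide fat, against 0.166 to 1.28 CPM in control + NaKtide fat (4.02 ± 0.72, adjusted p = 0.0595). Ier2 had 34.8 to 143 CPM in Western + NaKtide fat, against 20.2 to 27.9 CPM in control + NaKtide fat (1.50 ± 0.31, adjusted p = 0.0595). Klf4, a factor that can promote early adipogenesis, had 56.7 to 84.4 CPM in Western + NaKtide fat, against 24.0 to 40.1 CPM in control + NaKtide fat (0.92 ± 0.17, adjusted p = 0.0595). The phosphatase gene Dusp1, which switches MAP kinases off, had 40.3 to 86.0 CPM in Western + NaKtide fat, against 24.1 to 37.1 CPM in control + NaKtide fat (1.01 ± 0.23, adjusted p = 0.0595). The kinase gene Sik1 had 21.4 to 49.2 CPM in Western + NaKtide fat, against 15.7 to 17.3 CPM in control + NaKtide fat (1.08 ± 0.24, adjusted p = 0.0595). Plk3, another kinase gene, had 6.31 to 15.2 CPM in Western + NaKtide fat, against 3.08 to 3.92 CPM in control + NaKtide fat (1.42 ± 0.29, adjusted p = 0.0595). For each of these genes the groups did not overlap. Nr4a1, an orphan nuclear receptor, overlapped only through the muscle-laden control + NaKtide replicate 2, at 169 CPM. The Western + NaKtide libraries had 9.18 to 59.2 CPM of Nr4a1 and the other controls 3.98 to 5.73 CPM.

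RefSeq promoters (GRCm38.p6, 250 bases before to 50 after the start) of Klf2, Ccn1 and Dusp1 are shown. These are 3 of the 11 list members that were higher in every Western + NaKtide library. They were picked by hand among those, and all 3 hold the TGACG marked below. Capitals mark TGACG on either strand, the core of the cyclic AMP response element.
Klf2 (chr8:72318812-72319111, plus strand): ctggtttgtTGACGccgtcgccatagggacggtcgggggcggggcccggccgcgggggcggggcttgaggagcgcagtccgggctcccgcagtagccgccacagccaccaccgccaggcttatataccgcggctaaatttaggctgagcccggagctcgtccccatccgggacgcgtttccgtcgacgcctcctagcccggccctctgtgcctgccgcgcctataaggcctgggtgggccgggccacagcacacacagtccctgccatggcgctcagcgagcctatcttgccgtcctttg
Ccn1 (chr3:145649936-145650235, minus strand): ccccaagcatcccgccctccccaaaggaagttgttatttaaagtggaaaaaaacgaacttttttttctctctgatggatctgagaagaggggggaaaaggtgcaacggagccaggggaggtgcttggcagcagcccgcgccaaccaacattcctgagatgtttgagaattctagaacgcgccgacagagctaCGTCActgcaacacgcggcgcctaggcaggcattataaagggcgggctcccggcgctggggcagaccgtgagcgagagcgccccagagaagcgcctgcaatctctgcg
Dusp1 (chr17:26508423-26508722, minus strand): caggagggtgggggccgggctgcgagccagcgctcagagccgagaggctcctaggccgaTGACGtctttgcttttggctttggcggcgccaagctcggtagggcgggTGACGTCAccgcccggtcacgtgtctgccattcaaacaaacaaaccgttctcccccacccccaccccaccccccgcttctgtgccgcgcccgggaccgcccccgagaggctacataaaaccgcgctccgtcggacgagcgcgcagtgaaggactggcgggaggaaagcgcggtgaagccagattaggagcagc
TGACG was in at least 1 promoter of 19 of the 27 listed genes with a promoter in the table, against 20.8% of all 32851 promoters. TATAAA was in 4 of 27 against 13.6%, CCAAT in 10 against 37.4%, and the CArG box in 3 against 1.63%, each on both strands. TGACG lies within the full element TGACGTCA. Genes with several promoters had more chances to match, and a match is a description of these letters.

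Leptin, adiponectin, resistin and adipsin transcripts overlapped between the diets. None of 14 secreted peptide genes tested passed and 3 were higher in all Western + NaKtide libraries (background 2.00%). The median log2 fold change of the list was 0.24 (0.07 without control + NaKtide replicate 2). Fgf21, a hormone of the fasting and stress response, was low, at 1.48 to 3.88 CPM in Western + NaKtide fat, against 0 to 1.22 CPM in control + NaKtide fat, and did not overlap (log2 fold change 1.62 ± 0.45, edgeR's adjusted p = 0.0691). Lep, the leptin gene, had 2218, 1702, 2998, 2748 and 1886 CPM in Western + NaKtide fat, against 1886, 209, 3480.4, 1633 and 1687 CPM in control + NaKtide fat. Control replicate 2 lay far below the Western range, and the log2 fold change was 0.38 ± 0.46 (adjusted p = 0.643) with all libraries and 0.09 ± 0.32 without it. Adipoq, the adiponectin gene, had 1913 to 2401 CPM in Western + NaKtide fat, against 800.4 to 3001 CPM in control + NaKtide fat (-0.07 ± 0.24, adjusted p = 0.891). Retn, the resistin gene, had 823 to 1131 CPM in Western + NaKtide fat, against 401 to 1273 CPM in control + NaKtide fat (0.02 ± 0.24, adjusted p = 0.979). Cfd, which encodes adipsin, had 2149.9 to 5887 CPM in Western + NaKtide fat, against 2506 to 7772 CPM in control + NaKtide fat (-0.59 ± 0.37, adjusted p = 0.335).

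Of 24 adipocyte identity genes tested none passed and the median log2 fold change was -0.02 (-0.21 without control + NaKtide replicate 2). Their sum was 32790.4 to 40972 CPM in Western + NaKtide fat, against 19670.2 to 46201 CPM in control + NaKtide fat, so the groups overlapped with all libraries (exact permutation test, two-sided, p = 0.762, adjusted p = 0.852). The lowest control was the muscle-laden replicate 2. Without it the controls had 42828 to 46201 CPM, above every Western + NaKtide library (exact p = 0.0159, adjusted p = 0.301). Slc2a4, the insulin-responsive glucose transporter GLUT4 that muscle also expresses, had 169.9, 250.5, 255, 179.7 and 258 CPM in Western + NaKtide fat, against 304, 949.9, 186, 392 and 383 CPM in control + NaKtide fat. Muscle-laden replicate 2 was highest, and the log2 fold change of -0.99 ± 0.31 (edgeR's adjusted p = 0.0898) was -0.51 ± 0.21 without it (adjusted p = 0.218). Gpd1, which makes glycerol phosphate for triglyceride, had 674 to 1274 CPM in Western + NaKtide fat, against 1269 to 1815 CPM in control + NaKtide fat (-0.62 ± 0.21, adjusted p = 0.106). Car3, a carbonic anhydrase that is abundant in adipocytes, had 3892, 6120.3, 5288, 5625 and 6238 CPM in Western + NaKtide fat, against 8805, 8364, 7571, 9203 and 9461 CPM in control + NaKtide fat. Car3 was lower in every Western + NaKtide library (-0.68 ± 0.19, adjusted p = 0.0716). Pparg, the master factor of fat cells, had 144 to 218 CPM in Western + NaKtide fat, against 66.8 to 357 CPM in control + NaKtide fat (-0.45 ± 0.29, adjusted p = 0.333). The summed white adipocyte markers, given above, overlapped (exact permutation test, two-sided, p = 0.27, adjusted p = 0.57). Without control + NaKtide replicate 2 the controls had 28810.3 to 36074 CPM and still overlapped the Western libraries (exact p = 0.0318, adjusted p = 0.302).

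Most other genes of branched-chain amino acid breakdown had negative log2 fold changes, as Dbt did. This list too was drawn up after values were seen. Its 27 genes summed to 2691, 3302, 3798, 2949.5 and 3916 CPM in Western + NaKtide fat, against 4734, 3042, 3996, 4244 and 4319 CPM in control + NaKtide fat. These sums overlapped, and without control + NaKtide replicate 2 the controls, at 3996 to 4734 CPM, were above every Western + NaKtide library. Of 27 tested, 23 had a negative log2 fold change (median -0.24, and -0.35 without control + NaKtide replicate 2) and 4 were lower in all Western + NaKtide libraries (background 1.36%). Bcat2, the mitochondrial aminotransferase of the first step, had 212, 181, 208, 125 and 158 CPM in Western + NaKtide fat, against 324, 246, 238, 386 and 348 CPM in control + NaKtide fat. Bcat2 had a log2 fold change of -0.80 ± 0.20 (edgeR's adjusted p = 0.0595). Acadsb, an acyl-CoA dehydrogenase of the isoleucine branch, had 115 to 156 CPM in Western + NaKtide fat, against 163 to 197 CPM in control + NaKtide fat (-0.38 ± 0.12, adjusted p = 0.0914). Ppm1k, the phosphatase that activates the keto acid dehydrogenase, had 4.95 to 8.09 CPM in Western + NaKtide fat, against 6.66 to 16.2 CPM in control + NaKtide fat and overlapped (-0.87 ± 0.28, adjusted p = 0.0972). Klf15, a factor that drives amino acid breakdown genes, had 32.3, 46.0, 37.1, 25.4 and 40.8 CPM in Western + NaKtide fat, against 72.7, 46.9, 75.4, 107 and 100.4 CPM in control + NaKtide fat. Klf15 had a log2 fold change of -1.15 ± 0.25 (edgeR's adjusted p = 0.0595), with no overlap. Gpt2, a mitochondrial alanine aminotransferase outside the list, had 107, 139.7, 134, 83.5 and 149 CPM in Western + NaKtide fat, against 238, 178, 188, 189 and 234 CPM in control + NaKtide fat. Gpt2 had a log2 fold change of -0.74 ± 0.16 (edgeR's adjusted p = 0.0595), again lower in every Western + NaKtide library.

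None of 26 insulin signalling and glucose use genes tested passed (median log2 fold change -0.15). Hk1, the hexokinase that most tissues use, had 67.4, 49.3, 39.99, 84.3 and 40.8 CPM in Western + NaKtide fat, against 31.5, 21.2, 35.2, 34.4 and 26.4 CPM in control + NaKtide fat. Hk1 was higher in every Western + NaKtide library (log2 fold change 0.91 ± 0.20, edgeR's adjusted p = 0.0595). Gys1, the glycogen synthase of muscle and fat, had 81.1, 104, 97.3, 70.2 and 89.6 CPM in Western + NaKtide fat, against 133, 444, 110.0, 174 and 134 CPM in control + NaKtide fat. Every Western + NaKtide library was lower, and muscle-laden replicate 2 was the highest (log2 fold change -1.16 ± 0.30, adjusted p = 0.061, and -0.64 ± 0.19 with adjusted p = 0.121 without that library).

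Mitochondrial transcripts had negative log2 fold changes, and their sum was by far highest in the muscle-laden control + NaKtide replicate 2. Whether they moved with the muscle markers was not tested. The 13 mitochondrially encoded mRNAs summed to 24156, 28548, 37138, 34383 and 34891 CPM in Western + NaKtide fat, against 53369.6, 391179.9, 30188, 51215 and 62241 CPM in control + NaKtide fat. Control + NaKtide replicate 3, which had 82.7 summed CPM of muscle markers, lay within the Western range, and the other controls were above it (exact permutation test, two-sided, p = 0.0318, adjusted p = 0.271). All 13 genes had a negative log2 fold change, with a median of -1.89 that was -0.66 without replicate 2; none passed in either fit. For mt-Nd3, a subunit of complex I, the log2 fold change was -2.60 ± 0.66 (edgeR's adjusted p = 0.0596) and -1.09 ± 0.39 without that library (adjusted p = 0.164). For mt-Atp8, a subunit of ATP synthase, it was -2.57 ± 0.66 (adjusted p = 0.0602) and -1.02 ± 0.38 (adjusted p = 0.174).

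Of 40 nuclear genes of oxidative phosphorylation 39 had a negative log2 fold change, with a median of -0.77 and -0.30 without replicate 2, and none passed. Ndufv2, a complex I subunit, had 121, 109, 149.8, 118 and 153 CPM in Western + NaKtide fat, against 247, 807, 139, 194 and 235 CPM in control + NaKtide fat. Ndufv2 had a log2 fold change of -1.31 ± 0.37 (edgeR's adjusted p = 0.0693), and -0.65 ± 0.23 without replicate 2 (adjusted p = 0.164). Uqcrb, a complex III subunit, had 73.9 to 118 CPM in Western + NaKtide fat, against 87.3 to 702 CPM in control + NaKtide fat (-1.47 ± 0.43, adjusted p = 0.0781). Its value was -0.67 ± 0.28 without replicate 2 (adjusted p = 0.216). Among 20 thermogenic genes tested none passed. Cox7a1, a subunit of cytochrome oxidase in brown fat and muscle, had 9.65, 9.64, 16.6, 6.31 and 17.6 CPM in Western + NaKtide fat, against 63.2, 989.7, 5.84, 15.2 and 79.9 CPM in control + NaKtide fat. Cox7a1 had a log2 fold change of -4.24 ± 1.06 (edgeR's adjusted p = 0.0595), and -1.76 ± 0.69 without replicate 2 (adjusted p = 0.189). Ppargc1b, a coactivator of mitochondrial genes, had 1.13 to 2.66 CPM in Western + NaKtide fat, against 2.82 to 3.85 CPM in control + NaKtide fat, lower in every Western + NaKtide library (-0.91 ± 0.28, adjusted p = 0.0856). Ucp1, the uncoupling protein of brown fat, was at 0 to 1.94 CPM in Western + NaKtide fat, against 0 to 4.22 CPM in control + NaKtide fat, at 0 in 1 Western + NaKtide and 3 control + NaKtide libraries. The muscle markers themselves all had negative log2 fold changes (20 of 20, median -5.66, and -2.72 without replicate 2). The fast muscle genes Eno3 and Casq1 had log2 fold changes of -6.15 ± 1.42 and -5.96 ± 1.43 (adjusted p = 0.0595 and 0.0595). Acta1, skeletal actin, had a log2 fold change of -4.34 ± 1.34 (adjusted p = 0.089). Without replicate 2 the 3 values were -3.02 ± 0.92, -2.60 ± 0.89 and -1.58 ± 0.98 (adjusted p = 0.128, 0.155 and 0.394). With the summed muscle markers as a covariate edgeR called 0 genes.

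**Figure D4:**
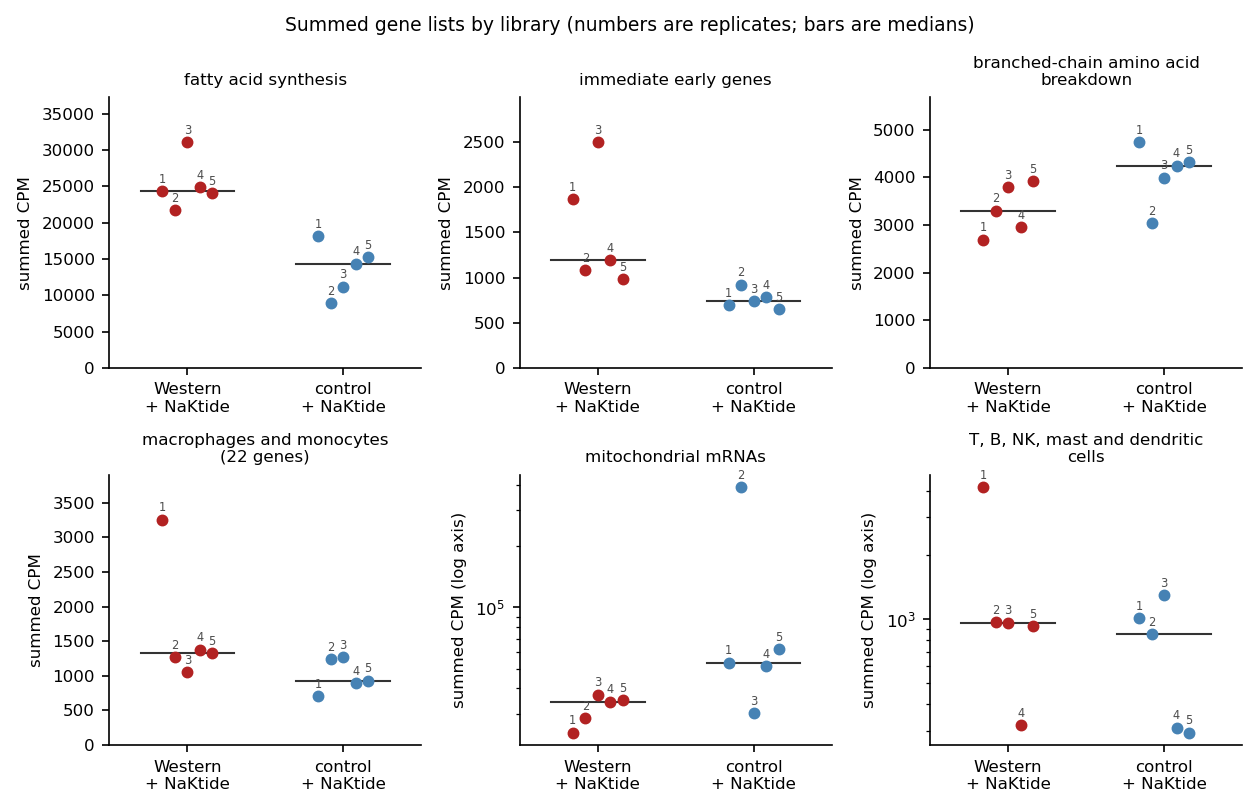
Summed CPM of 6 gene lists in 5 Western + NaKtide libraries (left, red) and 5 control + NaKtide libraries (right, blue), numbered by replicate, with bars at the medians. The mitochondrial and the lymphoid panels have log axes. The fatty acid synthesis and the immediate early sums do not overlap between groups, Western + NaKtide replicate 1 tops both immune panels and control + NaKtide replicate 2 the mitochondrial one.

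The summed macrophage and lymphoid genes were highest in Western + NaKtide replicate 1, the library with the visceral pattern. In bulk tissue more cells of a type and more RNA per cell cannot be told apart. The 22 macrophage and monocyte genes summed to 3254, 1268, 1054, 1375 and 1329 CPM in Western + NaKtide fat, against 701, 1236, 1265, 894 and 928 CPM in control + NaKtide fat (exact permutation test, two-sided, p = 0.0476, adjusted p = 0.271). Of 22 tested, 17 had a positive log2 fold change (median 0.73) and none passed. Csf1r, the receptor that macrophages need to survive, had 218, 135, 94.8, 134 and 122 CPM in Western + NaKtide fat, against 49.2, 92.4, 112, 75.7 and 62.3 CPM in control + NaKtide fat. Csf1r had a log2 fold change of 0.85 ± 0.26 (edgeR's adjusted p = 0.0861), and control + NaKtide replicate 3 was the highest control. Laptm5, a lysosomal protein of blood cells, had 175 to 575 CPM in Western + NaKtide fat, against 77.4 to 189.7 CPM in control + NaKtide fat (1.22 ± 0.37, adjusted p = 0.0863). The value was 0.80 ± 0.33 without Western + NaKtide replicate 1 (adjusted p = 0.205). None of 19 genes of lipid-associated macrophages passed, and 17 had a positive log2 fold change (median 0.72). Their sum was highest in control + NaKtide replicate 3. Gpnmb, a marker of those cells, had 364, 60.2, 38.2, 26.2 and 25.2 CPM in Western + NaKtide fat, against 13.6, 18.6, 42.2, 18.0 and 12.9 CPM in control + NaKtide fat. Gpnmb had a log2 fold change of 2.27 ± 0.89 (edgeR's adjusted p = 0.14), and 0.82 ± 0.75 without Western + NaKtide replicate 1 (adjusted p = 0.55).

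The T, B, NK, mast and dendritic cell genes summed to 4166, 968, 963, 317 and 928 CPM in Western + NaKtide fat, against 1013, 849, 1291, 310.1 and 293 CPM in control + NaKtide fat. Replicate 1 alone set the Western maximum of the sum, and the sums of the remaining Western + NaKtide libraries lay within the control range. Of 23 members tested, 22 had a positive log2 fold change and none passed. The median was 1.03 (1.23 without control + NaKtide replicate 2), and 4 were higher in all Western + NaKtide libraries (background 2.00%). Igkc, an antibody light chain, had 1543, 59.6, 16.2, 18.4 and 30.6 CPM in Western + NaKtide fat, against 3.32, 27.0, 14.0, 44.3 and 20.6 CPM in control + NaKtide fat. Igkc had a log2 fold change of 3.95 ± 1.27 (edgeR's adjusted p = 0.096), and 0.53 ± 0.84 without Western + NaKtide replicate 1 (adjusted p = 0.747). Trac, the T cell receptor alpha constant chain, was low but did not overlap, at 16.4, 5.25, 8.67, 2.75 and 3.02 CPM in Western + NaKtide fat, against 1.21, 0, 1.36, 1.30 and 0.829 CPM in control + NaKtide fat. Trac had a log2 fold change of 2.73 ± 0.68 (edgeR's adjusted p = 0.0595). The 10 lymph node markers summed to 9.48 to 88.4 CPM in Western + NaKtide fat, against 3.21 to 7.47 CPM in control + NaKtide fat, without overlap (exact permutation test, two-sided, p = 0.00794, adjusted p = 0.151, and exact p = 0.159 without control + NaKtide replicate 2), and their part in the immune values was not tested. All 9 MHC class II genes tested had a positive log2 fold change (median 0.62) and none passed. Cd74, the invariant chain, had 592 to 1214 CPM in Western + NaKtide fat, against 468 to 804 CPM in control + NaKtide fat (0.62 ± 0.26, adjusted p = 0.162). H2-Ab1, a class II beta chain, had 293 to 584 CPM in Western + NaKtide fat, against 218 to 436 CPM in control + NaKtide fat (0.56 ± 0.27, adjusted p = 0.2).

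None of 28 cytokine, chemokine and receptor genes tested passed, 3 were higher in all Western + NaKtide libraries (background 2.00%) and the median log2 fold change was 0.61. Cxcl1, which attracts neutrophils, had 4.16, 0.976, 7.05, 1.46 and 1.69 CPM in Western + NaKtide fat, against 0.302, 0.642, 0.679, 0.162 and 0.497 CPM in control + NaKtide fat. Cxcl1 had a log2 fold change of 2.78 ± 0.73 (edgeR's adjusted p = 0.061). Tgfb1, a cytokine that drives fibrosis, had 85.3, 69.3, 56.0, 66.2 and 56.7 CPM in Western + NaKtide fat, against 37.6, 21.2, 54.3, 45.4 and 31.1 CPM in control + NaKtide fat. Tgfb1 had a log2 fold change of 0.80 ± 0.22 (edgeR's adjusted p = 0.0693). Neither gene overlapped. Ccl2, the monocyte attractant, had 17.4, 3.17, 12.2, 5.66 and 4.47 CPM in Western + NaKtide fat, against 2.56, 5.13, 14.4, 0.973 and 0.994 CPM in control + NaKtide fat. Ccl2 had a log2 fold change of 0.82 ± 0.76 (edgeR's adjusted p = 0.52), with control + NaKtide replicates 2 and 3 inside the Western range. Tnf reached 0.231 to 1.57 CPM in Western + NaKtide fat, against 0 to 1.14 CPM in control + NaKtide fat, under the low-count filter, and Il6 was at 0 in all libraries except control + NaKtide replicate 1, so no difference was detectable for either at this depth. The interferon-stimulated genes had a median of 0.22 over 22 genes and none passed. The smallest p values were those of Oas2 (0.80 ± 0.47, adjusted p = 0.296) and Rsad2 (0.42 ± 0.25, adjusted p = 0.298), both antiviral enzymes.

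Matrix and vessel genes held some that did not overlap. Of 38 collagen and matrix genes none passed, 2 were higher in all Western + NaKtide libraries (background 2.00%) and the median log2 fold change was 0.17 (0.02 without control + NaKtide replicate 2). Their sum was 10285 to 14072 CPM in Western + NaKtide fat, against 6404 to 23248 CPM in control + NaKtide fat, where the control maximum was replicate 3 and the other controls reached 11123. Thbs1, thrombospondin, which activates TGF-beta, had 105, 57.2, 72.7, 184 and 62.1 CPM in Western + NaKtide fat, against 38.6, 10.3, 32.2, 7.14 and 5.63 CPM in control + NaKtide fat. Thbs1 had a log2 fold change of 2.32 ± 0.59 (edgeR's adjusted p = 0.0596). Vwf, von Willebrand factor of endothelium, had 47.7, 75.1, 56.4, 63.4 and 39.9 CPM in Western + NaKtide fat, against 29.6, 18.0, 26.8, 23.0 and 22.7 CPM in control + NaKtide fat. Vwf had a log2 fold change of 1.22 ± 0.32 (edgeR's adjusted p = 0.0602). Cldn5, an endothelial junction protein, had 128 to 222 CPM in Western + NaKtide fat, against 53.2 to 251 CPM in control + NaKtide fat and overlapped (0.79 ± 0.44, adjusted p = 0.265). Of 10 endothelial markers 9 had a positive sign, against 7601 of all 15226 genes, and 1 was higher in all Western + NaKtide libraries (background 2.00%). Their sum overlapped, at 905 to 1831 CPM in Western + NaKtide fat, against 515 to 1236 CPM in control + NaKtide fat (exact permutation test, two-sided, p = 0.214, adjusted p = 0.543). Icam1, an adhesion molecule, had 14.3 to 25.6 CPM in Western + NaKtide fat, against 9.63 to 12.4 CPM in control + NaKtide fat, without overlap (0.90 ± 0.22, adjusted p = 0.0595).

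None of 16 adipose expansion genes tested passed (median log2 fold change 0.44, and 0.16 without control + NaKtide replicate 2). Mest had 387, 272, 407, 396 and 270.2 CPM in Western + NaKtide fat, against 78.6, 5.78, 505, 32.3 and 19.7 CPM in control + NaKtide fat. Its log2 fold change of 1.42 ± 0.89 did not pass (edgeR's adjusted p = 0.323). Mest passed without control + NaKtide replicate 3 (adjusted p = 0.0196), which is no independent evidence, since its high Mest set that library apart. Peg3, another imprinted gene, had 52.5 to 107 CPM in Western + NaKtide fat, against 27.6 to 52.9 CPM in control + NaKtide fat (1.11 ± 0.40, adjusted p = 0.117). Trarg1, a regulator of GLUT4 traffic, had 775 to 1099 CPM in Western + NaKtide fat, against 209 to 800.4 CPM in control + NaKtide fat (0.71 ± 0.26, adjusted p = 0.125).

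The Na,K-ATPase and the Src family held no member past the threshold. Of 19 Na,K-ATPase and Src family genes tested, 13 had a positive log2 fold change and the median was 0.42. Fxyd2, a small regulator of the pump, had 24.1, 15.4, 18.7, 37.9 and 25.1 CPM in Western + NaKtide fat, against 12.2, 14.8, 15.1, 9.57 and 10.9 CPM in control + NaKtide fat and did not overlap (log2 fold change 0.96 ± 0.25, edgeR's adjusted p = 0.0602). Src had 15.7, 18.8, 14.2, 39.8 and 13.9 CPM in Western + NaKtide fat, against 14.9, 6.42, 19.8, 12.2 and 10.9 CPM in control + NaKtide fat. Western + NaKtide replicate 4 stood out and the rest overlapped (0.63 ± 0.31, adjusted p = 0.213).

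Of 9 NADPH oxidase genes tested, 8 had a positive log2 fold change (median 1.01) and none passed. Cybb, a catalytic subunit of phagocytes, had a log2 fold change of 1.02 ± 0.37 (edgeR's adjusted p = 0.117), and 0.58 ± 0.32 without Western + NaKtide replicate 1 (adjusted p = 0.303), with Western + NaKtide replicate 1 highest, as for the macrophage genes. Among 32 antioxidant and Nrf2 target genes none passed (median -0.08). Ucp2, a mitochondrial carrier that macrophages also express, had 543, 216, 193, 259 and 180.5 CPM in Western + NaKtide fat, against 128, 122, 155, 139 and 131 CPM in control + NaKtide fat. Ucp2 had a log2 fold change of 1.04 ± 0.27 (edgeR's adjusted p = 0.0602), and 0.65 ± 0.20 without Western + NaKtide replicate 1 (adjusted p = 0.138). It was higher in every Western + NaKtide library. Gpx3, the secreted glutathione peroxidase, had 671, 395, 401, 282 and 240.2 CPM in Western + NaKtide fat, against 743, 2115, 346, 1649 and 1814 CPM in control + NaKtide fat. Gpx3 had a log2 fold change of -1.75 ± 0.48 (edgeR's adjusted p = 0.0658), with control + NaKtide replicate 3 inside the Western range and the other controls above it.

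The remaining lists had no member past the threshold. Of 28 heat shock and unfolded protein genes the smallest p values were those of the mitochondrial chaperones Hspd1 and Hspe1. Hspd1 had 138 to 202 CPM in Western + NaKtide fat, against 211 to 241 CPM in control + NaKtide fat, lower in every Western + NaKtide library (log2 fold change -0.45 ± 0.15, edgeR's adjusted p = 0.0993), and Hspe1 overlapped (-0.72 ± 0.24, adjusted p = 0.0993). For 20 clock genes the median was -0.16 (-0.04 without control + NaKtide replicate 2), with Nr1d2 at -0.50 ± 0.20 (adjusted p = 0.143), or -0.30 ± 0.17 without replicate 2 (adjusted p = 0.34), and Tef at -0.73 ± 0.30 (adjusted p = 0.157). For 20 cell cycle genes the median was 0.34, with the mitotic kinases Cdk1 at 1.16 ± 0.52 (adjusted p = 0.182) and Aurkb at 1.31 ± 0.61 (adjusted p = 0.193). Aurkb was at 2.25 ± 0.67 without control + NaKtide replicate 3 (adjusted p = 0.039), which is no independent evidence, since that library was the control most like the Western group. Western + NaKtide replicate 1, the library with the visceral pattern, stood apart from its group for Aurkb at 4.16 CPM, and the value without it is not given here. Trp63, an epithelial factor on the skin list, had 0.804, 2.08, 2.08, 1.46 and 1.33 CPM in Western + NaKtide fat, against 4.98, 5.78, 4.21, 6.49 and 7.29 CPM in control + NaKtide fat. Trp63 was lower in every Western + NaKtide library (-1.87 ± 0.43, adjusted p = 0.0595).

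Whether the diet effect under NaKtide differed from that without it was tested as an interaction in the same model, against 5 Western diet and 5 control diet libraries of subcutaneous fat without NaKtide, whose doxycycline status and genotype the labels do not give. No gene passed (0 of 15226, 0.00%; smallest adjusted p 0.214), and 35 passed without control + NaKtide replicate 2 (0.227%). The smallest p values were those of Pck2, Lmo1 and Grasp. Pck2, the mitochondrial PEP carboxykinase, had a diet log2 fold change of 0.43 ± 0.15 with NaKtide and -0.74 ± 0.15 without, an interaction of 1.18 ± 0.21 (edgeR's adjusted p = 0.214). Lmo1 and Grasp, a transcriptional cofactor and a scaffold protein, had interactions of 1.34 ± 0.26 and 1.18 ± 0.23 (adjusted p = 0.214 for each). Klf2 without NaKtide averaged 65.3 ± 9.68 CPM in Western diet libraries and 69.6 ± 6.80 CPM in control diet libraries (SD, n = 5 each), a log2 fold change of -0.09 ± 0.16, and its interaction was 1.14 ± 0.23 (adjusted p = 0.214). Ccn1 had 0.21 ± 0.46 without NaKtide and an interaction of 2.75 ± 0.66 (adjusted p = 0.262).

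Without NaKtide edgeR called 854 genes between the diets (5.61%; 336 higher and 518 lower, or 2.21% and 3.40%). Control diet libraries without NaKtide also held muscle: the 20 muscle markers summed to 34.1 to 214 CPM in Western diet and 8121 to 61816 CPM in control diet libraries without NaKtide, and its part in those calls was not tested. Golga7b rose there too, at 71.3 ± 19.5 CPM in Western diet libraries and 7.84 ± 5.35 CPM in control diet libraries (SD, n = 5 each) (log2 fold change 3.17 ± 0.43, edgeR's adjusted p = 0.00457). Dbt fell there, at 44.0 ± 6.06 CPM in Western diet libraries and 71.3 ± 18.4 CPM in control diet libraries (SD, n = 5 each) (-0.70 ± 0.18, adjusted p = 0.0321). Met did not pass (-0.13 ± 0.26, adjusted p = 0.782; interaction -0.87 ± 0.36, adjusted p = 0.375). Scd3 rose without NaKtide (2.32 ± 0.40, adjusted p = 0.00993), and Scd1 did not pass (0.85 ± 0.26, adjusted p = 0.0645; interaction 0.42 ± 0.37, adjusted p = 0.701). Of 25 cholesterol synthesis genes 17 rose without NaKtide (background 2.21% of all genes; median log2 fold change 1.59, against 0.26 with NaKtide), while none of them passed the interaction. Of the 1049 genes below an adjusted p of 0.10 under NaKtide, 247 (23.5%) were among the 854 called without it (28.9% of those), and 245 of the 247 had the same sign. Of all 854, 708 had the same sign under NaKtide. The part of muscle in this sharing of signs was not tested. The diet pairs with and without NaKtide share no library.

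The diet effect under NaKtide differed between depots for many genes. In a model of all 40 fat libraries the visceral effect minus the subcutaneous effect passed for 2411 of 17788 genes (13.6%; 1317 positive and 1094 negative, or 7.40% and 6.15%), and for 1455 without the 2 libraries labelled Western + NaKtide replicate 1, whose transcripts matched the other depot. The model treats all 40 libraries as independent. Whether visceral and subcutaneous libraries of the same group and number came from the same mouse was not tested. For the subcutaneous diet effect itself this model called 556 genes, 144 of them higher, and 0 without control + NaKtide replicate 2. Mest had 32.9, 15.3, 135, 22.7 and 48.8 CPM in visceral Western + NaKtide libraries 1 to 5, against 203, 447, 507, 532 and 453 CPM in visceral control + NaKtide libraries 1 to 5 (difference in log2 fold change -4.45 ± 1.22, edgeR's adjusted p = 0.0145). Golga7b (-4.20 ± 0.68, adjusted p = 0.000457) and Ccn1 (-4.31 ± 0.79, adjusted p = 0.000913) had negative differences, and Dbt (2.06 ± 0.48, adjusted p = 0.00496) and Met (2.46 ± 0.45, adjusted p = 0.00094) positive ones. Visceral log2 fold changes of the diet were -1.81 ± 0.47 for Golga7b, -1.38 ± 0.54 for Ccn1, 0.97 ± 0.34 for Dbt and 1.45 ± 0.32 for Met, each with the opposite sign to subcutaneous fat.

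The visceral labels bear on these directions. By the labels, the visceral diet difference of Mest and of Golga7b ran opposite with NaKtide to that without it. Both genes were looked at after values were seen, and the same was not compared over all genes. Mest was at 15.3 to 135 CPM in visceral Western + NaKtide and 203 to 532 CPM in visceral control + NaKtide libraries. Without NaKtide it was at 262 to 554 CPM in visceral Western and 3.45 to 271 CPM in visceral control libraries. Golga7b was at 2.84 to 8.17 and 9.28 to 30.0 CPM with NaKtide on the Western and the control diet, and at 43.7 to 79.9 and 0.896 to 7.02 CPM without it. Whether NaKtide or the labels of the visceral libraries set this pattern cannot be told apart here, so each depot difference holds for the libraries as labelled.

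The genes with the smallest p for this difference were Cyp2f2, Tst and 4 predicted genes. Cyp2f2, a cytochrome P450, had 193, 89.8, 19.6, 221 and 23.2 CPM in visceral Western + NaKtide libraries 1 to 5, against 2.26, 2.29, 1.76, 4.39 and 4.48 CPM in visceral control + NaKtide libraries 1 to 5 (difference 7.77 ± 1.03, edgeR's adjusted p = 0.000106). Tst, the mitochondrial sulfurtransferase rhodanese, had 73.8, 56.9, 39.2, 201 and 48.2 CPM in visceral Western + NaKtide libraries 1 to 5, against 14.4, 17.0, 11.0, 12.2 and 11.8 CPM in visceral control + NaKtide libraries 1 to 5 (4.36 ± 0.59, adjusted p = 0.000106). In subcutaneous fat both had negative log2 fold changes, of -2.60 ± 0.68 and -1.69 ± 0.39. Gm7592, Gm7609, Gm15433 and ENSMUSG00000094054 had differences of -5.87 ± 0.82, -6.98 ± 0.98, -8.79 ± 1.26 and -8.36 ± 1.19 (adjusted p = 0.000127 for each). The 3 named ones are predicted genes within 1 stretch of chromosome 1 (84963669 to 85550577), and how the counting split reads among similar copies is uncertain. For Scd1, at 0.64 ± 0.43 in visceral fat, Klf2 and Lep the difference did not pass (-0.60 ± 0.61, -0.87 ± 0.53 and -2.38 ± 0.90; adjusted p = 0.539, 0.277 and 0.0701). The share of all genes that passed was 7.40% with a positive and 6.15% with a negative difference. By list, 12 of 22 macrophage genes passed with a negative difference, 13 of 13 mitochondrial mRNAs with a positive one, 30 of 40 nuclear oxidative phosphorylation genes with a positive one and 18 of 20 muscle markers with a positive one. With the muscle sum as a covariate, 470 genes passed. Without the muscle-laden subcutaneous control + NaKtide replicate 2, 1619 of 18398 genes passed, 672 with a positive and 947 with a negative difference. The list counts above include that library and are not given without it.

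**Figure D5:**
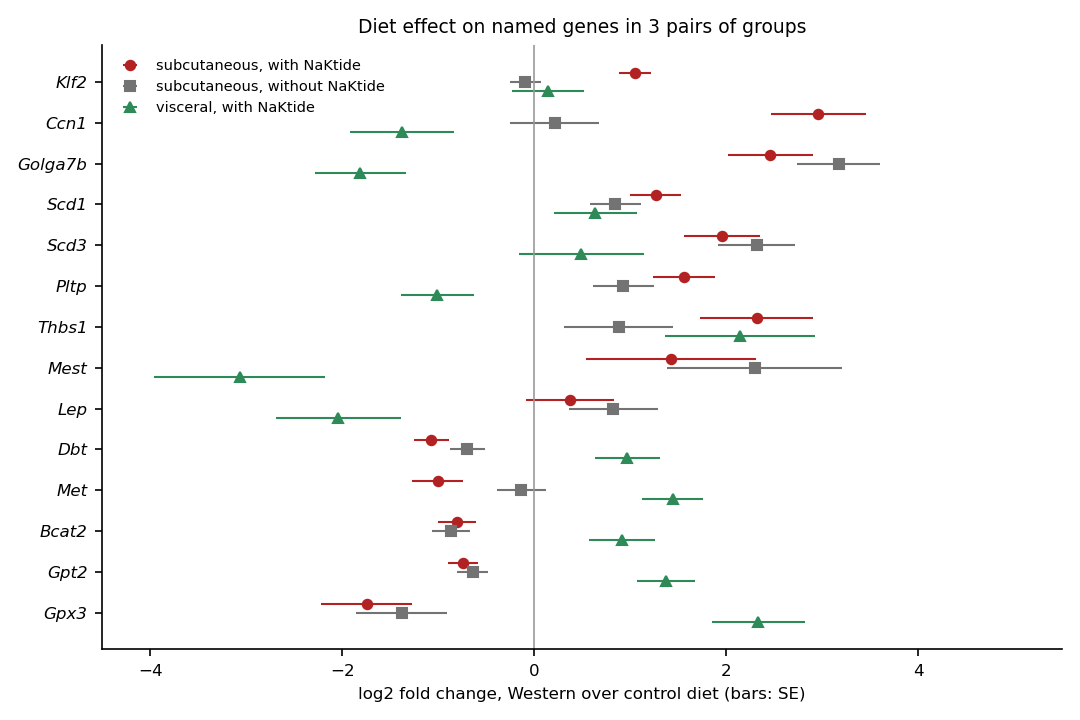
Log2 fold change of Western over control diet with its SE for 14 named genes, in subcutaneous fat with NaKtide (red circles), subcutaneous fat without NaKtide (grey squares) and visceral fat with NaKtide (green triangles, from the 40-library model). Each mark is an estimate from 5 against 5 libraries. For Golga7b, Ccn1, Mest, Dbt and Met the visceral estimates have the opposite sign to the subcutaneous ones with NaKtide.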

How the data were processed

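Fat of mice was profiled by stranded paired-end RNA sequencing (RNeasy extraction, TruSeq mRNA kit, per the labels' protocols). Raw counts per gene were deposited by the authors; GRCm38, HISAT2 2.1.0, Trimmomatic 0.38 and DESeq2 1.20.0 are listed, with no roles, in the submitters' processing notes. Whether the counting used strand is not given in the sources used here. Symbols and coordinates of genes come from the GENCODE M21 annotation of GRCm38 for 54079 of 54232 identifiers.

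Counts of the 20 subcutaneous libraries were fitted in R 4.3.3 with edgeR 4.0.16 (4 groups, TMM scaling, filterByExpr, quasi-likelihood test, Benjamini-Hochberg adjustment over 15226 genes, threshold 0.05), with a biological coefficient of variation of 0.346. The 40 fat libraries were fitted in an 8-group model (17788 genes) for the depots, and visceral CPM and visceral effects come from it. A standard error is the log2 fold change over the square root of F. Alternatives were DESeq2 1.42.0, limma 3.58.1 voom with quality weights, RLE scaling, no filter, a replicate block, a muscle covariate, the 2 groups alone and each library left out; an adjusted p of 0.10, the 40-library model for the subcutaneous contrast and leaving out the libraries marked by the other depot were chosen after seeing the data. Summed lists were tested by exact permutation over libraries, adjusted over 38 sums. The code was tested on simulated data. Intervals of counting are not given; errors are between libraries.

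The libraries compared and the gene lists were chosen with earlier results of these data known. The rule for named genes took the largest called changes, up to 2 members with the smallest p of each list with no call, a fixed set (Adipoq, Lep, Retn, Cfd, Src, Tnf, Il6, Ccl2, Ucp1, Srebf1, Srebf2, Fasn, Scd1 and Acta1) and the smallest p values of the interaction and the depot difference. Since 0 genes were called with all libraries, the 40 genes with the smallest p at a mean of 5 CPM or more, the 4 called without control + NaKtide replicate 2, Mest, Tbx15, the mesothelial genes, the remaining immediate early and branched-chain genes, and Gpnmb, Igkc and Cldn5 were added after values were seen. Some genes that the rule takes are not reported here. Subcutaneous Western + NaKtide and control + NaKtide libraries with the same replicate number did not deviate together. Pairing across depots was not tested.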

Additional observations from a re-analysis of the deposited data

Results flagged for a closer look

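Of 214 groups of 5 libraries tested for a library far from the other 4 (a gap of more than 0.71 of the group's range), 42 had one. Independent, normally distributed values would give about 1 in 20. These values were CPM of related genes and their sums, and some genes were picked after values were seen. That share is therefore no baseline for the 42. Control + NaKtide replicate 2 stood apart 20 times, with 169 CPM for Nr4a1, 28.2 CPM for Acsl5, 683 CPM for Fitm1, 949.9 CPM for Slc2a4 and 444 CPM for Gys1. It also had 989.7 CPM for Cox7a1, 807 CPM for Ndufv2, 702 CPM for Uqcrb, 6964 CPM for mt-Nd3 and 2538 CPM for mt-Atp8. It also had 28789 CPM for Acta1, 11112 CPM for Eno3, 4296 CPM for Casq1, 295 CPM for Tbx15 and 391179.9 summed CPM for mitochondrial encoded mRNAs. It also had 263455 summed CPM for the skeletal muscle markers, 3168 summed CPM for thermogenic brown and beige fat, 35699.7 summed CPM for oxidative phosphorylation, nuclear subunits, 18.0 summed CPM for the mesothelial markers and 17.5% for the mitochondrial mRNA share of counts.

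The library labelled Western + NaKtide replicate 1 stood apart 9 times, with 575 CPM for Laptm5, 364 CPM for Gpnmb, 1543 CPM for Igkc, 58.7 CPM for Cybb and 543 CPM for Ucp2. It also had 4.16 CPM for Aurkb, 0.134 CPM for Tbx15, 3254 summed CPM for macrophages and monocytes and 4166 summed CPM for T, B, NK, mast and dendritic cells. The library labelled control + NaKtide replicate 3 stood apart 5 times, with 68.5 CPM for Hilpda, 42.2 CPM for Gpnmb, 21.9 CPM for Cybb, 505 CPM for Mest and 23248 summed CPM for collagens and matrix. Western + NaKtide replicate 4 stood apart with 5887 CPM for Cfd and 39.8 CPM for Src. Western + NaKtide replicate 3 stood apart with 84.4 CPM for Klf4 and 6.01 CPM for Fitm1. Control + NaKtide replicate 1 stood apart with 3542 CPM for Fasn, 4.22 CPM for Ucp1, 0.151 CPM for Il6 and 251 CPM for Cldn5.

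The diet effect under NaKtide differed between the depots in the test of the difference itself, visceral minus subcutaneous (edgeR's adjusted p). Positive log2 differences were 7.77 for Cyp2f2 (adjusted p = 0.000106), 4.36 for Tst (adjusted p = 0.000106), 2.06 for Dbt (adjusted p = 0.00496) and 2.46 for Met (adjusted p = 0.00094). Negative ones were -5.87 for Gm7592 (adjusted p = 0.000127), -6.98 for Gm7609 (adjusted p = 0.000127), -8.36 for ENSMUSG00000094054 (adjusted p = 0.000127), -8.79 for Gm15433 (adjusted p = 0.000127), -4.20 for Golga7b (adjusted p = 0.000457), -4.31 for Ccn1 (adjusted p = 0.000913) and -4.45 for Mest (adjusted p = 0.0145). These directions follow the visceral labels as deposited.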

How the results depend on the processing

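The count of genes between the diets under NaKtide, 0 with all libraries, was 1194 with DESeq2, 592 with voom and quality weights, 2 without the low-count filter, 6 with the 2 groups alone and without control + NaKtide replicate 2, 1049 at an adjusted p of 0.10 and 556 (144 higher) in the 40-library model. These last 2 alternatives were chosen after seeing the data. It was 0 in the 40-library model without control + NaKtide replicate 2, with RLE scaling, the muscle covariate, the 2 groups alone, and without both the muscle-laden library and the library with the visceral pattern. Leaving out 1 library gave 0 to 1860 calls, the highest without control + NaKtide replicate 3. The interaction, 0 with all libraries, gave 56 calls with DESeq2, 0 with voom, and 0 to 35 with 1 library left out, the highest without control + NaKtide replicate 2. The depot difference, 2411, gave 1481 without the filter, 3642 with DESeq2, 4495 with voom, 470 with the muscle covariate, 1455 without the 2 libraries marked by the other depot, and 1618 to 3458 with 1 library left out. Of the 518 list members tested, 0 were called with all libraries, 70 with DESeq2, 38 with voom, 2 with the 2 groups alone and 1 library fewer, and 0 to 95 with 1 library left out. The exact test of 38 sums cannot go below p = 0.00794, which for 1 list alone adjusts to 0.302, so its misses say nothing about stability. The causes were not tested.

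With the replicate block the counts were 0 for the diet under NaKtide, 0 for the interaction, 1906 for the depot difference and 0 for the list members. The numbers do not pair the libraries: deviations from the group means correlated by -0.19 to 0.114 between libraries of the same number, and no Western + NaKtide library correlated best with the control + NaKtide library of its own number.

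90 named genes were followed through 1706 combinations of gene and alternative. With all libraries 0 genes were called between the diets, so a kept result means that the gene stayed uncalled, in 1514 combinations. In 192 the gene was called. No called direction was there to reverse, so the 0 reversals say nothing about stability. Uncalled values changed sign 31 times, in 7 genes.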

Other observations

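The summed markers of the following cell types overlapped between the groups with all libraries. Schwann cell and nerve markers summed to 251 to 459 CPM in Western + NaKtide fat, against 209.9 to 359 CPM in control + NaKtide fat. Fibroblast progenitor markers summed to 1122 to 1651 CPM in Western + NaKtide fat, against 987 to 1965 CPM in control + NaKtide fat, with the highest control in replicate 3. Pericyte and smooth muscle markers summed to 832 to 2377 CPM in Western + NaKtide fat, against 1258 to 7598 CPM in control + NaKtide fat, where the control maximum was the muscle-laden replicate 2. Blood markers summed to 3520.1 to 5668 CPM in Western + NaKtide fat, against 2993 to 5639 CPM in control + NaKtide fat. Without control + NaKtide replicate 2 the controls had 2993 to 3499 CPM of blood markers, below every Western + NaKtide library (exact permutation test, p = 0.0318, adjusted p = 0.302). Liver markers summed to 19.2 to 99.7 CPM in Western + NaKtide fat, against 16.1 to 61.0 CPM in control + NaKtide fat. Mammary and gland markers summed to 0.846 to 25.6 CPM in Western + NaKtide fat, against 2.27 to 57.8 CPM in control + NaKtide fat, mesothelial markers to 1.83 to 86.1 CPM in Western + NaKtide fat, against 1.22 to 18.0 CPM in control + NaKtide fat and skin keratinocyte markers to 19.3 to 61.8 CPM in Western + NaKtide fat, against 20.8 to 57.1 CPM in control + NaKtide fat. With all libraries the smallest adjusted p of these sums in the exact permutation test was 0.547. Single members could differ from their sum. Of 3 skin markers tested, 2 were lower in all Western + NaKtide libraries (background 1.36%), and of 10 fibroblast progenitor markers 1 was higher (background 2.00%).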
